A study of Homo sapiens with 15 samples.

Results

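The Wnt pathway genes of C4-2B prostate cancer cells are described here in 44 genes of the 58302 in the count tables. They were given as a list of gene names: 17 WNT ligands, 12 receptors (FZD1 to FZD10, LRP5 and LRP6), 4 extracellular inhibitors, 2 membrane ubiquitin ligases and 9 intracellular transducers, and each of the 44 was found. By the labels, the RNA-seq samples form 5 groups of 3: the C4-2B line, plus DKD and ER cells after Pax5 siRNA (siPax5) or its scrambled control (scr). The labels call the DKD and ER cells neuroendocrine-like and give their genotype as control for scr and as Pax5 knockdown for siPax5. Count tables of the C4-2B group were used, and since DKD and ER tables were not used here, conditions were not compared. C4-2B is an established line derived from LNCaP, labelled adenocarcinoma and wild type, grown in RPMI with fetal bovine serum, and in the study it is the parent of the enzalutamide-resistant ER cells. Nothing in the labels says that the 3 libraries came from separate cultures. The study states 3 independent replicates for all its experiments, without saying whether each was a separate culture. SDs and p-values therefore measure the spread between these samples, which may be technical.

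WNT proteins are secreted, lipid-modified ligands that bind a Frizzled (FZD) receptor together with the co-receptor LRP5 or LRP6. Without a ligand, a complex of AXIN, APC and the kinase GSK3B marks beta-catenin, the product of CTNNB1, for destruction. With a ligand that complex is inhibited, and beta-catenin joins a TCF/LEF factor on DNA. Secreted DKK and SFRP proteins block the ligands or the co-receptors, and the membrane ligases RNF43 and ZNRF3 remove FZD receptors from the cell surface. Beta-catenin activity is set mostly on the protein, which RNA counts do not measure.

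The libraries held 44992971 to 49569026 counts in genes. Levels are given as TPM, counts divided by exon length and scaled to the same sum over all genes in each library, and a gene was called expressed at 1 TPM or more in each of the 3 libraries. Luminal prostate genes were high, with KLK3 at 1988 ± 21.1 TPM, KLK2 at 321 ± 1.5 TPM and TMPRSS2 at 201 ± 1.52 TPM (SD, n = 3). The neuroendocrine genes CHGA and SYP had means of 1.38 and 1.31 TPM, and both were called expressed by this rule, near its threshold. Of 5 stromal markers, COL1A2 and DCN had 0 counts, LUM had 2 and COL3A1 reached 0.389 TPM. COL1A1 stood at 7.09 ± 0.581 TPM (SD, n = 3) and was called expressed. The blood markers PTPRC and CD3E had 2 and 4 counts over the 3 libraries. A low level in bulk RNA can come from few cells with the transcript or from little of it per cell, and these cannot be told apart.

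To understand which parts of the pathway C4-2B cells express, the genes were counted by role. By the threshold of 1 TPM, C4-2B cells expressed nearly every receptor and transducer listed, a minority of the ligands and none of the 4 inhibitors. In all, 28 of the 44 genes were expressed, which is 63.6% beside 61.2% of protein-coding genes and 32.8% of all genes in the tables. By role, expression was called for 7 of 17 ligands, 11 of 12 receptors, 0 of 4 inhibitors, 2 of 2 membrane ligases and 8 of 9 transducers. At 10 TPM or more in each library there were 14 of the 44 genes, or 31.8%, beside 43.4% of protein-coding genes. These were 2 ligands, 7 receptors, 1 ligase and 4 transducers. The total of 28 is therefore near the share of protein-coding genes in general, and it joins roles whose shares lay on both sides of that background.

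**Figure D1:**
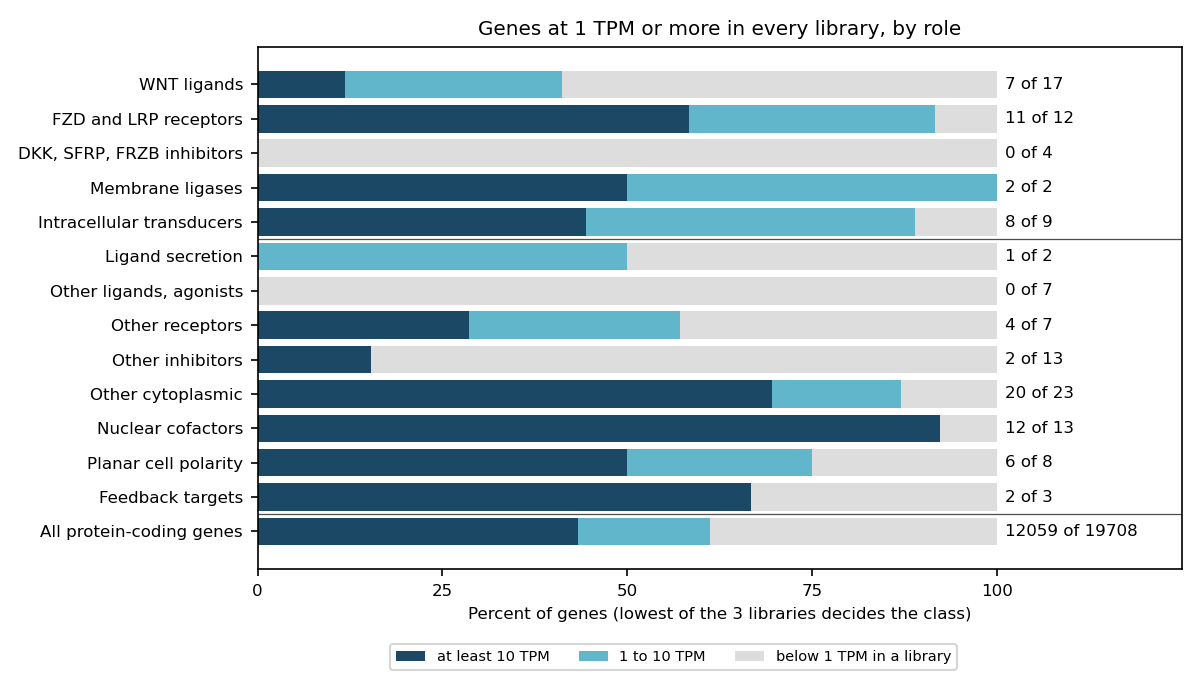
The horizontal axis gives the percent of genes in each role that reached at least 10 TPM (dark), 1 to 10 TPM (light blue) or less than 1 TPM (grey) in the lowest of the 3 C4-2B libraries, with the count at 1 TPM or more at the right. Receptors (11 of 12) and transducers (8 of 9) lie above the bar of all protein-coding genes (61.2%), while ligands (7 of 17) and DKK, SFRP and FRZB inhibitors (0 of 4) lie below it.

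Median TPM gave the same order of the larger roles. The median of the gene means was 18.7 TPM for receptors, 7.43 TPM for transducers, 0.499 TPM for ligands and 0.145 TPM for inhibitors, beside 5.88 TPM for protein-coding genes. As log2(TPM + 1), a scale on which low genes differ too little, the median receptor lay 3.64 ± 0.13 above the median ligand (SD over 3 libraries). The median transducer lay 2.49 ± 0.13 above the median ligand. Transducers minus receptors gave -1.15 ± 0.10 and inhibitors minus ligands gave -0.39 ± 0.13, with the same sign in each library. With role means in place of medians the difference between transducers and receptors was -0.25, and the means include CTNNB1 and GSK3B, which lie well above the other transducers. With genes under 0.1 TPM left out, transducers minus ligands was 1.22 and inhibitors minus ligands was -1.43.

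Summed over genes, the transducers gave 324 ± 4.31 TPM, the receptors 271 ± 3.32 TPM, the ligands 64.0 ± 1.10 TPM, the ligases 25.4 ± 0.970 TPM and the inhibitors 0.859 ± 0.217 TPM (SD, n = 3). Receptor RNA per length was thus 4.23 ± 0.114 times ligand RNA, and transducer RNA 1.20 ± 0.0277 times receptor RNA. All 44 genes together held 0.0685% of the TPM of the cells.

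**Figure D2:**
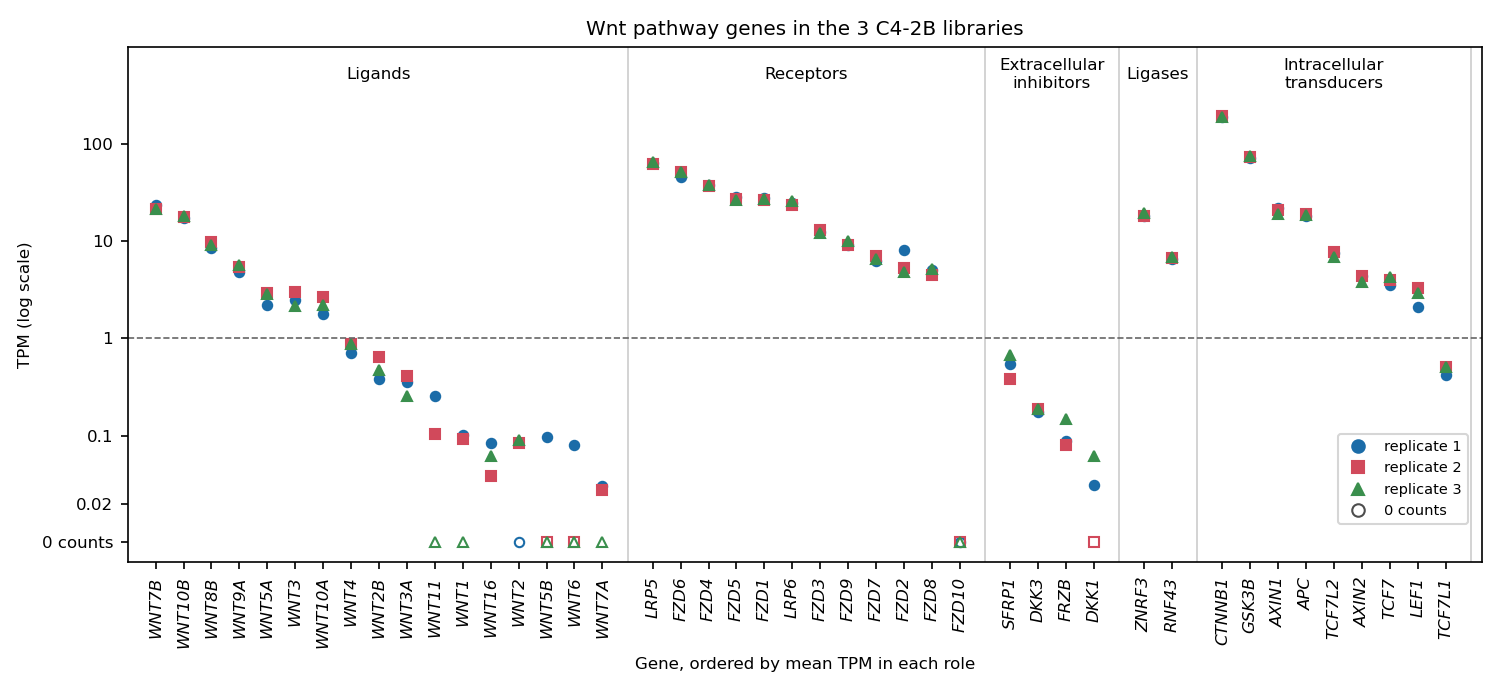
Each symbol is the TPM (log scale) of 1 gene in 1 of the 3 C4-2B libraries, with genes ordered by mean TPM in each role, open symbols for 0 counts and a dashed line at 1 TPM. Ligands spread from WNT7B at 21.3 to 23.7 TPM down to genes with 0 counts in a library, while FZD10 is the 1 receptor with 0 counts in every library.

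The ligand RNA was held by few WNT genes. WNT7B, a ligand that signals through beta-catenin in several epithelia, stood at 23.7, 21.5 and 21.3 TPM in replicates 1, 2 and 3, with a mean of 22.2 ± 1.35 TPM (SD, n = 3). WNT10B, another ligand of the beta-catenin branch, stood at 17.6, 17.6 and 18.3 TPM, with a mean of 17.8 ± 0.382 TPM. The lowest WNT7B library was above the highest WNT10B library, and the ratio of both genes was 1.25 ± 0.0940. WNT7B was higher than 69.4% of protein-coding genes.

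WNT8B, best known from the developing brain, followed at 8.59, 9.76 and 9.10 TPM, a mean of 9.15 ± 0.584 TPM. WNT9A, a ligand of joint and limb development, gave 4.88, 5.49 and 5.64 TPM, a mean of 5.34 ± 0.403 TPM. These 4 ligands were ranked without overlap between the libraries of neighbours, and they made up 85.2% of the summed WNT level. WNT7B alone held 34.7% ± 2.45 and WNT10B 27.8% ± 0.923 of it (SD, n = 3). Counted by reads without dividing by length, the WNT7B share was 44.9%.

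The other 3 expressed ligands lay close together. WNT5A, the main ligand of the branch that does not use beta-catenin, stood at 2.21, 2.96 and 2.87 TPM. WNT3 gave 2.50, 3.04 and 2.17 TPM. WNT10A, a close relative of WNT10B with roles in teeth and hair, gave 1.78, 2.65 and 2.22 TPM. Their means were 2.68 ± 0.412, 2.57 ± 0.441 and 2.22 ± 0.436 TPM in that order (SD, n = 3), and the libraries of WNT5A and WNT3, and of WNT3 and WNT10A, overlapped. With them, the 7 expressed ligands held 96.8% of the summed WNT level.

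Below the threshold, WNT4, a ligand of the female reproductive tract and kidney, came nearest at 0.701, 0.888 and 0.882 TPM. WNT2B, WNT3A and WNT11 had means of 0.499, 0.338 and 0.121 TPM, on 286, 45 and 13 counts. Other genes have exons over 21.2% of the WNT2B exon bases, and a read there was counted for neither gene. The remaining 6 ligands had 10 counts or fewer over all libraries. WNT16 had 9 counts, WNT2 had 8, WNT5B had 6, WNT1 and WNT7A had 4 each and WNT6 had 2. For WNT5B all 6 counts were in replicate 1. From WNT2B down, each neighbouring pair in the order overlapped between libraries.

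**Figure D3:**
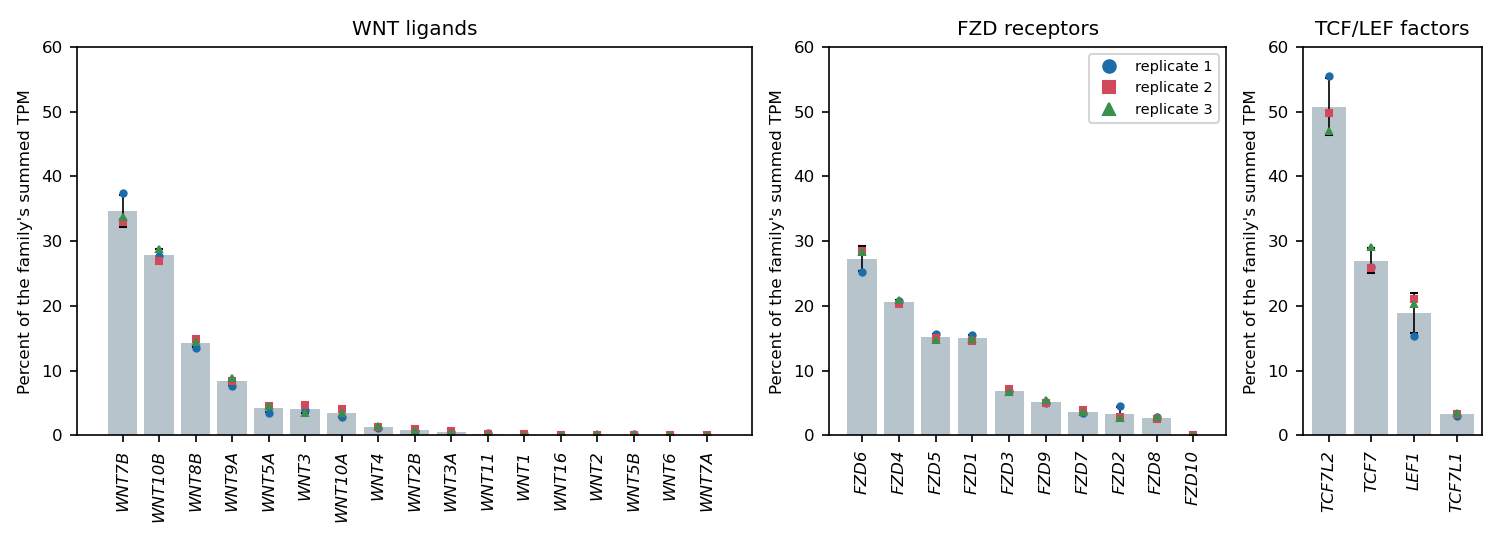
Bars show the mean percent of the summed TPM of each family held by each gene, symbols the 3 C4-2B libraries and error bars the SD (n = 3). WNT7B and WNT10B lead the ligands with 34.7% and 27.8%, FZD6 the FZD receptors with 27.3%, and TCF7L2 the TCF/LEF factors with 50.8%.

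To understand whether neighbouring ligand genes had similar levels, WNT genes within 100000 bases of each other were compared. There are 4 such pairs, none with a protein-coding gene between, and in each an expressed ligand lies next to one below 1 TPM. Of the 17 listed ligands 7 were expressed, and WNT pairs further apart were not compared. These pairs therefore do not show whether neighbours differ more than other WNT genes. WNT10B (chr12:48965340-48971763, minus strand, GRCh38) had a mean of 17.8 TPM, and WNT1 (chr12:48978453-48981676, plus strand) had 4 counts in all. Their transcribed regions are 6689 bases apart. WNT9A (chr1:227918656-227947898, minus strand) had 5.34 ± 0.403 TPM, and WNT3A (chr1:228007051-228061260, plus strand), 59152 bases away, had 0.338 ± 0.0776 TPM (SD, n = 3). WNT3 on chromosome 17 had 2.57 ± 0.441 TPM, and WNT9B, 46 bases away on the other strand, had 0.0736 ± 0.0317 TPM from 11 counts. WNT10A on chromosome 2 had 2.22 ± 0.436 TPM, and WNT6, 6129 bases away on the same strand, had 2 counts. In no pair did the libraries of both genes overlap. At these depths the 2 counts of WNT6 correspond to 0.0260 TPM, with an exact Poisson interval at 95% of 0.00315 to 0.0939 TPM that covers counting error.

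**Figure D4:**
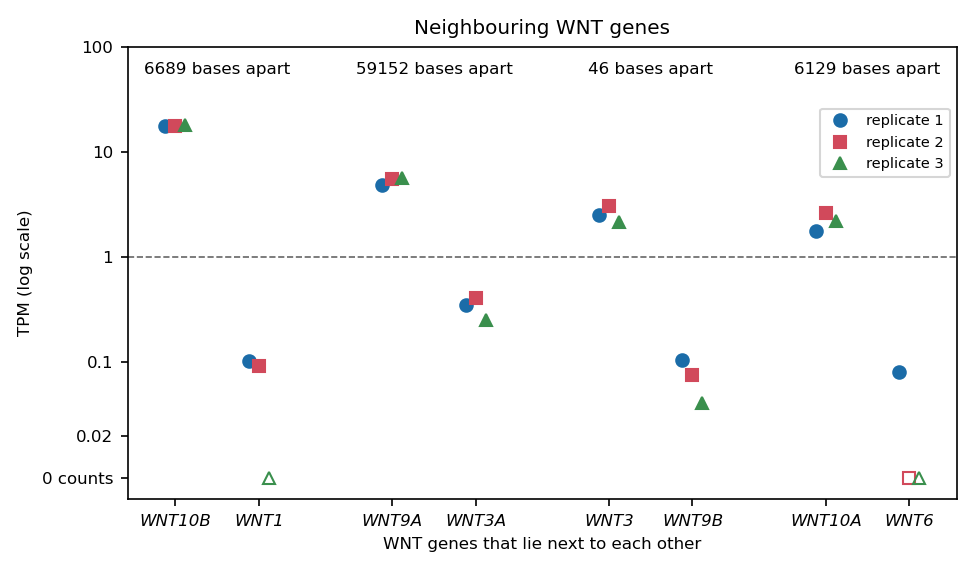
TPM (log scale) of neighbouring WNT genes in the 3 C4-2B libraries, with the distance between the genes above each pair, open symbols for 0 counts and a dashed line at 1 TPM. In each of the 4 pairs the 3 values of the left gene lie above 1 TPM and those of the right gene below it.

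The sequences before the RefSeq starts of WNT9A and WNT3A are shown because these divergent neighbours differ in level and both windows lie outside the exons of the count tables. Each is the 250 bases before the start, on the strand of the gene and from GRCh38.p14, with CG dinucleotides in capitals. The WNT9A window is chr1:227947933-227948182 on the minus strand, and the WNT3A window is chr1:228006748-228006997 on the plus strand.
WNT9A: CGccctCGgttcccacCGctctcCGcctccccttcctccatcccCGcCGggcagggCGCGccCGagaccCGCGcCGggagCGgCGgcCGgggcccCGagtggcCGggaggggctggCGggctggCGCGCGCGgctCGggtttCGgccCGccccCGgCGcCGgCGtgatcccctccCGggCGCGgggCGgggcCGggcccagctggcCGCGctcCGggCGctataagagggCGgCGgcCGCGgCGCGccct
WNT3A: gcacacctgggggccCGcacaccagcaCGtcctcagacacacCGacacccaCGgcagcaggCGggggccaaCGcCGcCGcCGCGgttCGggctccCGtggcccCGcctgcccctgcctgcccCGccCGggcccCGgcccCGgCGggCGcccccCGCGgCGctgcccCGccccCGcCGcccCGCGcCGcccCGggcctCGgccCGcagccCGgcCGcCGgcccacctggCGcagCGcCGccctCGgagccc
Both windows are rich in CG, with 44 CG dinucleotides and 84.4% G and C for WNT9A, and 38 and 86.0% for WNT3A. The gene at 5.34 TPM and the gene at 0.338 TPM thus both start in such sequence. RefSeq windows of 300 bases, 250 before and 50 after the start, were matched for 31 of the 44 genes. Genes without a window include AXIN2, ZNRF3, WNT7B, WNT10B, FZD6 and LRP6, so the counts below do not cover them. Taking the window richest in CG for each gene, the median was 30 CG for the 19 expressed genes and 35.5 for the 12 not expressed, beside 16 over the 27305 genes with windows, taken in the same way. The letters ATCAAAG, a core that TCF/LEF factors bind, or their reverse complement CTTTGAT were found in 0 of 39 windows of these genes and in 2.62% of all 35116 windows. At that share few matches would fall in 39 windows. No match says that these letters are absent from these windows, and nothing about the factors.

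Of the 12 receptors, 11 were expressed. The co-receptor LRP5 was the highest of them at 63.8, 63.1 and 65.3 TPM, a mean of 64.1 ± 1.11 TPM (SD, n = 3) that was above 88.8% of protein-coding genes. LRP6, the other co-receptor, stood at 24.6, 23.8 and 26.1 TPM, a mean of 24.8 ± 1.17 TPM. LRP5 was 2.58 ± 0.0766 times LRP6, and the libraries did not overlap. Either co-receptor can pair with an FZD receptor to pass on the beta-catenin signal.

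Of the FZD receptors, which bind the ligand through a cysteine-rich domain outside the cell, FZD6 was the highest at 45.6, 51.6 and 51.7 TPM, a mean of 49.6 ± 3.51 TPM. FZD4, which also binds the ligand Norrin, stood at 37.6, 36.8 and 38.2 TPM, a mean of 37.6 ± 0.680 TPM. Exons of other genes cover 18.9% of the FZD4 exon bases, and with the unshared length its mean was 44.2 TPM. FZD6 is known mostly for planar cell polarity, the orientation of cells within a sheet, and it led FZD4 in every library. By reads without length, the order was turned, with 25.05% of FZD reads in FZD4 and 18.2% in FZD6.

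FZD5 stood at 28.5, 27.2 and 26.8 TPM, a mean of 27.5 ± 0.869 TPM. FZD1 stood at 28.2, 26.5 and 27.3 TPM, a mean of 27.3 ± 0.848 TPM. Their libraries overlapped, so FZD5 and FZD1 were not ordered. FZD6, FZD4, FZD5 and FZD1 together held 78.2% of the summed FZD level, and FZD6 alone held 27.3% ± 1.86 (SD, n = 3).

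FZD3, a receptor of axon guidance, followed at 12.5, 12.9 and 12.1 TPM, and FZD9 at 9.15, 9.19 and 10.1 TPM. FZD7, FZD2 and FZD8, genes of 1 exon, closed the list of expressed receptors. FZD7 gave 6.33, 7.0 and 6.63 TPM. FZD2 gave 8.10, 5.26 and 4.87 TPM. FZD8 gave 5.12, 4.46 and 5.14 TPM. FZD2 overlapped with both FZD7 and FZD8 and was not ordered against them, while FZD7 lay above FZD8 in each library. FZD10, the receptor for which no expression was seen, had 0 counts in every library, and 3 counts over the 3 libraries would correspond to 0.0202 TPM.

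Of the extracellular inhibitors, none reached 1 TPM. SFRP1, a secreted protein that binds WNT ligands, was the highest at 0.551, 0.383 and 0.682 TPM, a mean of 0.539 ± 0.150 TPM (SD, n = 3) from 115 counts. DKK3, a relative of the DKK proteins that is not a typical LRP blocker, had 0.184 ± 0.00553 TPM from 42 counts. FRZB, another secreted binder of WNT ligands, had 0.106 ± 0.0386 TPM from 15 counts. DKK1, which binds LRP5 and LRP6, had 1, 0 and 2 counts. The libraries of neighbours in this order did not overlap, but the lower genes rest on few counts.

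Both membrane ligases that take FZD receptors off the surface were expressed. ZNRF3 stood at 18.3, 18.1 and 19.6 TPM, a mean of 18.7 ± 0.818 TPM. RNF43 stood at 6.54, 6.74 and 6.91 TPM, a mean of 6.73 ± 0.183 TPM (SD, n = 3). ZNRF3 was 2.77 ± 0.0757 times RNF43, and their libraries did not overlap. Exons of other genes cover 20.3% of the RNF43 exon bases. With the unshared length the means were 8.05 TPM for RNF43 and 17.8 TPM for ZNRF3, a lower ratio. Both genes are known targets of beta-catenin in gut epithelium, where they form a negative feedback.

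Among the transducers CTNNB1, which encodes beta-catenin, had the highest level of the 44 genes. CTNNB1 (chr3:41194837-41260096, plus strand) stood at 190.4, 196 and 191 TPM, on 18252, 20591 and 18693 counts. Its mean of 192 ± 2.77 TPM (SD, n = 3) was above 97.2% of protein-coding genes, with a coefficient of variation of 1.44%. GSK3B, the kinase that phosphorylates beta-catenin, stood at 72.7, 73.9 and 74.8 TPM, a mean of 73.8 ± 1.08 TPM.

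The scaffolds of the destruction complex were lower than the kinase. AXIN1, the limiting scaffold of that complex in many cells, gave 22.1, 21.0 and 19.2 TPM, a mean of 20.8 ± 1.46 TPM. APC, the tumour suppressor of the colon that binds beta-catenin, gave 18.2, 19.0 and 18.5 TPM, a mean of 18.6 ± 0.362 TPM. AXIN2, a close relative of AXIN1 and a widely used target gene of beta-catenin, gave 4.40, 4.40 and 3.78 TPM, a mean of 4.19 ± 0.355 TPM. CTNNB1 RNA was 10.4 ± 0.0617 times APC and 9.29 ± 0.675 times AXIN1, and AXIN1 was 4.97 ± 0.171 times AXIN2 (SD, n = 3). AXIN2 shares 25.2% of its exon bases with other genes, and with the unshared length its mean was 5.34 TPM. AXIN1 had a mean of 19.8 TPM by that length, so its ratio to AXIN2 was lower.

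The TCF/LEF factors, the DNA-binding partners of beta-catenin, were the lowest of the transducers together with AXIN2. TCF7L2 stood at 7.67, 7.76 and 6.86 TPM, a mean of 7.43 ± 0.493 TPM. TCF7 stood at 3.59, 4.03 and 4.26 TPM, a mean of 3.96 ± 0.338 TPM. LEF1 stood at 2.12, 3.29 and 2.97 TPM, a mean of 2.79 ± 0.604 TPM (SD, n = 3). The 3 factors were ordered without overlap, and TCF7L2 held 50.8% ± 4.35 of the family's summed level.

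TCF7L1, which acts mostly as a repressor, was the 1 transducer not expressed, at 0.422, 0.512 and 0.506 TPM. CTNNB1 RNA was 26.0 ± 1.66 times that of TCF7L2. The exons of LEF1, TCF7L2 and TCF7 overlap exons of other genes over 5.20%, 4.45% and 2.09% of their bases.

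To place these genes in the wider pathway, 76 other Wnt pathway genes were counted in the same way. Of these, 47 (61.8%) were expressed and 38 (50%) were at 10 TPM or more in each library, beside 61.2% and 43.4% of protein-coding genes, so the total lay near the background here too. Other ligands and agonists were expressed in 0 of 7 cases, other inhibitors in 2 of 13 and other receptors in 4 of 7. Cytoplasmic transducers were expressed in 20 of 23 cases and nuclear cofactors in 12 of 13, all 12 of them at 10 TPM or more.

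For ligand secretion, PORCN, which attaches the lipid to WNT proteins, stood at 7.49, 7.57 and 8.41 TPM. WLS, which carries them to the surface, stood at 0.818, 0.759 and 1.18 TPM, so that it passed 1 TPM in replicate 3 and not in replicates 1 and 2. PORCN was 8.75 ± 1.47 times WLS (SD, n = 3). The highest of the other ligands and agonists were NDP (Norrin) with a mean of 0.275 TPM, RSPO4 with 0.249 TPM and WNT9B with 0.0736 TPM. The agonists RSPO2 and RSPO3 and the ligand WNT8A had 0 counts.

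Of the other receptors, RYK had a mean of 30.3 ± 1.35 TPM, PTK7 11.4 ± 0.187 TPM and LGR4, a receptor for the RSPO agonists, 11.3 ± 1.46 TPM. These 3 genes act beside the FZD receptors, RYK and PTK7 as membrane proteins of the kinase-like class. Of the other inhibitors, KREMEN2 had 35.2 ± 1.40 TPM and KREMEN1 14.6 ± 1.14 TPM, both membrane receptors for DKK proteins, whereas TPBG had 0.647 TPM. DKK2 and SOST, secreted blockers of LRP5 and LRP6, had 0 counts.

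Inside the cell, JUP (plakoglobin), the close relative of beta-catenin in cell junctions, had 291 ± 1.63 TPM, and CTNNB1 was 0.661 ± 0.0124 times JUP. DVL1, which relays the FZD signal, had 141 ± 3.20 TPM, and CSNK1A1, the kinase that primes beta-catenin for GSK3B, had 109 ± 1.91 TPM. Exons of other genes cover 37.4% of the CSNK1A1 exon bases, where reads were not counted, beside 2.36% for DVL1. GSK3B was 3.85 ± 0.108 times its relative GSK3A. DACT2 had 0 counts. Of the nuclear cofactors, the highest were TLE5 with 72.8 ± 1.21 TPM, PYGO2 with 67.0 ± 2.04 TPM and TLE3 with 60.4 ± 0.410 TPM, where TLE3 is a corepressor of TCF/LEF factors and PYGO2 a coactivator of beta-catenin.

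The planar cell polarity genes were expressed in 6 of 8 cases, led by CELSR2 with 28.1 TPM, PRICKLE3 with 23.5 TPM and VANGL1 with 21.6 TPM. Of 3 genes that beta-catenin induces in other tissues, TNFRSF19 had 117 ± 2.63 TPM and ASCL2 12.4 ± 1.03 TPM, while SP5 had 1.17, 0.915 and 0.657 TPM (SD, n = 3). SP5 passed 1 TPM in replicate 1 and not in replicates 2 and 3. No sample given or deprived of a Wnt ligand was analysed here to set these levels against.

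To understand whether the 3 libraries differed in Wnt genes, the counts of each gene were compared with the library sizes by a chi-square test. The chi-square was divided by 2 since mates were counted separately, which may overcorrect because not every pair gave 2 counts to its gene. This test compares libraries and not conditions. Of the 44 genes, 34 had the minimum of 30 counts, and 1 of them, FZD2, passed an adjusted p of 0.05, beside 0.792% of the 22229 genes tested. At an unadjusted p under 0.05 there were 8 of 34, beside 11.3% of all genes tested. Both shares are above the 0.05 that counting noise alone would give if the halving fits. The share of the Wnt genes was the larger, and whether the 2 shares differ was not tested.

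FZD2 (chr17:44557459-44559570, a gene of 1 exon) had 248, 177 and 152 counts. After scaling, replicate 1 lay 33.8% above the mean of the libraries, and replicates 2 and 3 had deviations of -13.5% and -20.3%. Its adjusted p was 0.0407 by the halved chi-square test with Benjamini-Hochberg adjustment. Without replicate 1 that value was 0.929 and without replicate 3 it was 0.183, and with all genes of at least 1 count tested it was 0.0678. Without replicate 2 it was 0.0362. Leaving out replicate 1 or replicate 3 by the same test left 0 of the 33 Wnt genes tested called. Of all genes tested, 0.186% and 0.216% were called, in that order. At an unadjusted p under 0.05 there were 3 of these Wnt genes without replicate 1, beside 8.34% of all genes tested. Without replicate 3 there were 7, beside 9.43%. If the chi-square was not halved, 9 of 34 were called, beside 17.3% of all genes tested.

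The genes with the next lowest adjusted p did not pass. LEF1 had 165, 281 and 235 counts, with replicate 1 at a deviation of -23.6% and an adjusted p of 0.212. FZD6 had an adjusted p of 0.0965 and AXIN1 one of 0.105 by the same test, with AXIN1 also called without replicate 2. Over the 28 expressed genes the coefficient of variation of TPM had a median of 5.91%, and it ranged from 1.44% for CTNNB1 to 29.0% for FZD2. It was under 5% for 12 of these genes.

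**Figure D5:**
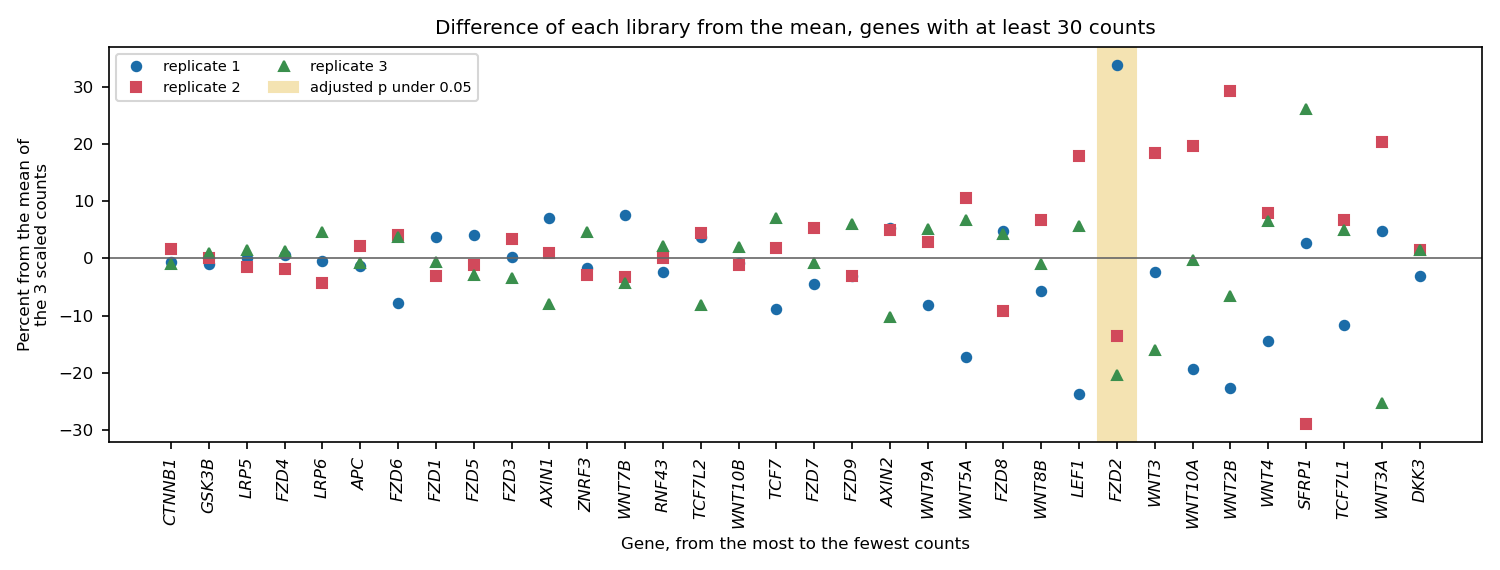
The vertical axis gives the percent by which each C4-2B library deviated from the mean of the 3 scaled counts, for the 34 genes with at least 30 counts, ordered from the most counts to the fewest. FZD2, shaded, had an adjusted p under 0.05, with replicate 1 at 33.8%, and the deviations were small for CTNNB1, GSK3B and LRP5 at the left.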

How the data were processed

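RNA of C4-2B cells was, per the labels, depleted of ribosomal RNA and made into stranded libraries that the authors aligned to GRCh38 with STAR. Raw counts of reads per gene were deposited, taken by the authors with featureCounts 1.6.3 over Ensembl release 90. Per the file headers no strand was set, so reads from a gene and an antisense partner cannot be told apart. Mates were counted separately, and reads over exons of more than 1 gene were not counted. The deposited exon length is another value per gene made by the authors. The other 12 samples were not analysed here.

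TPM was computed from counts and exon lengths over all 58302 genes, of which 57532 had a symbol. Gene types came from GENCODE release 44 and promoter windows from RefSeq. The libraries were compared by the halved chi-square test with 2 degrees of freedom on TMM sizes (edgeR 4.0.16) and Benjamini-Hochberg adjustment over all genes tested. It was tested on simulated counts drawn as mate pairs, which fit the halving by construction. Exact Poisson intervals and the limit of 3 counts cover counting error only, and are too narrow since mates and PCR copies were counted. Over the 3 libraries, 55.6% of counts from 1 to 20 were even, and 15 of 24 such counts of the Wnt genes. If every pair gave 2 counts to its gene all would be even, so the divisor of 2 may be too large. The 44 genes, the 76 others and the markers were chosen with earlier results of these data known. A further blood marker is not reported here. Values are given per library for genes at a mean of 1 TPM and for the highest gene below it in each role, as counts for genes with 10 or fewer, and for the 3 highest of each other list. Alternatives changed the TPM threshold and denominator, gene length, pseudocount, filter, scaling and replicates. Analyses used R 4.3.3, DESeq2 1.42.0 for size factors, and Python 3.11.15.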

Additional observations from a re-analysis of the deposited data

How the results depend on the processing

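The counts of genes at 1 TPM or more, in all and by role, stayed within 1.5 times under every alternative run, and no difference between roles changed sign. With a pseudocount of 0.1, transducers minus ligands was 3.67, receptors minus ligands 4.91 and inhibitors minus ligands -1.30 (log2). With means in place of medians, the differences were 2.32 for transducers minus ligands, -0.25 for transducers minus receptors, 2.57 for receptors minus ligands and -1.06 for inhibitors minus ligands. With genes at 0.1 TPM or more alone they were 1.22, -1.62, 2.84 and -1.43 in that order. TPM without the 10 most abundant and the mitochondrial genes gave 2.77 for transducers minus ligands and 3.95 for receptors minus ligands, and raised each level 1.45 times. Unshared exon length gave 3.48 for receptors minus ligands. By reads without length, WNT7B held 44.9% of WNT reads and FZD6 18.2% of FZD reads. Without halving the chi-square, 9 genes were called between libraries, beside 17.3% of all genes tested. With all genes of at least 1 count tested, 0 were called, beside 0.319% of all genes. At an unadjusted p under 0.05 there were then 9 of 43, beside 7.77%. Leaving out replicate 1, 2 or 3 gave 0, 2 and 0 called, beside 0.186%, 1.11% and 0.216% of all genes tested. The mean levels of the 28 expressed genes moved by less than 1 SD when any replicate was left out. With 3 libraries this holds for any values, so it says nothing about how steady the levels are. No paired analysis was possible because libraries of 1 group were analysed. Depth limits the genes with 10 counts or fewer.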
